A study of Mus musculus with 9 samples.

Results

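The expression of 10 imprinted growth genes was followed in cultured neural stem cells (NSCs) from the adult mouse subependymal zone (SEZ), the stem cell niche that lines the lateral ventricles. The members were H19, Igf2, Igf2r, Grb10, Dlk1, Meg3, Plagl1, Peg3, Ndn and Mest. They were chosen by name, by matching the Ensembl identifiers of the count table to these symbols, and the rule that selects them uses no measured value, although the genes were proposed with earlier results of these data known. All 10 were found among the 48526 genes of the table, and 9 of them were among the 18858 genes that passed the filter on low counts and were tested. Meg3 did not pass.

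NSCs of the C57BL/6 strain, as the labels name it (C57BL/6J in the study's methods), were grown as neurospheres with EGF and FGF, then placed on an adhesive substrate without EGF to start their differentiation. Bulk stranded mRNA libraries were made at 0, 1 and 6 h from the change, with 3 replicates at each time and 9 libraries in all. All groups shared the strain, the tissue of origin and the culture, and no group carried a transgene or a deletion. Each replicate number (1, 2 or 3) occurred once at each time. The labels do not say whether libraries with the same number came from the same culture, nor whether different numbers came from separate animals, so the p-values measure only the spread between these libraries.

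An imprinted gene is transcribed mainly from the allele inherited from one parent, under the control of a DNA region that is methylated in only one of the parental germ lines. Many genes expressed from the paternal allele promote growth, and many expressed from the maternal allele restrain it. In the adult SEZ, Igf2 and Dlk1 are known as growth signals for NSCs. The counts do not separate the parental alleles, so every value here is the sum of both. The parental allele named for a gene below is its general classification, and the allele used in these cells was not measured.

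The genes lie in separate imprinted domains on GRCm38. H19 (chr7:142575529-142578143, minus strand) and Igf2 (chr7:142650766-142666816, minus strand) are neighbours on chromosome 7, and so are Dlk1 (chr12:109452823-109463336, plus strand) and Meg3 (chr12:109541001-109571726, plus strand) on chromosome 12. Peg3 (chr7:6703892-6730431, minus strand) and Ndn (chr7:62346569-62350262, plus strand) are elsewhere on chromosome 7. Igf2r is at chr17:12682406-12769664 (minus strand), Grb10 at chr11:11930508-12038683 (minus strand), Plagl1 at chr10:13060504-13131694 (plus strand) and Mest at chr6:30723547-30748465 (plus strand). H19 and Meg3 are annotated as noncoding RNAs and the other 8 as protein-coding genes, and the counts cover their annotated exons.

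The 9 libraries held between 65871454 and 105592597 counts. All 12 NSC markers were at 1 CPM (counts per 1000000, scaled for library size) or more on average, with a summed level of 7644 to 10229 CPM. The defining markers of other cells were low: all 6 microglia markers were below 1 CPM, as were 5 of 6 choroid plexus markers (Ttr, the transthyretin gene, among them), 4 of 6 endothelial, 4 of 6 oligodendrocyte and 6 of 8 pericyte and fibroblast markers. Of the 8 neuroblast and neuron markers 6 reached 1 CPM, with a sum of 831 to 1563 CPM, and of the 6 ependymal markers 3 did, with a sum of 40.3 to 94.5 CPM.

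The 10 genes covered a very wide range of levels. Mest, which encodes a protein of the alpha/beta hydrolase family, stood far above the others at 359 ± 56.0 CPM per kb of exon (mean ± SD over the 9 libraries), 20.0 times the mean level of the next gene. Peg3 followed at 17.9 ± 2.25, Ndn at 15.6 ± 8.04, Igf2r at 10.5 ± 1.51 and Plagl1 at 3.92 ± 1.41 CPM per kb. The remaining 5 genes were low, with mean levels of 0.305 for Grb10, 0.148 for Igf2, 0.0831 for Dlk1, 0.0555 for H19 and 0.00527 for Meg3 on the same scale. Mest was above Peg3, Igf2r above Plagl1 and Plagl1 above Grb10 in 9 of 9 libraries with no overlap of their ranges. The other neighbours in this order overlapped in range: Peg3 was above Ndn in 6 of 9 libraries, and Ndn above Igf2r in 5 of 9.

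**Figure D1:**
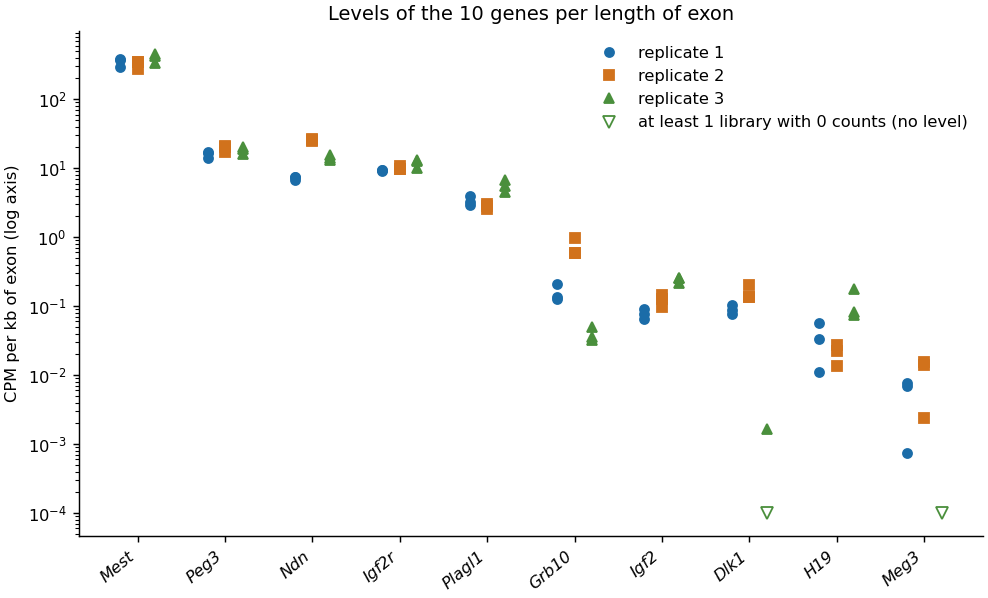
Level of each gene in CPM per kb of exon on a log axis, 1 point per library, coloured by replicate number. Open triangles at the bottom mark genes with 0 counts in at least 1 library of a number (Dlk1 and Meg3 in replicate 3) and have no level. Mest lies above every other gene, and the 5 lowest genes have mean levels of 0.305 CPM per kb or less.

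The largest differences among these genes were between replicate numbers, not between times. All 9 tested members differed between the 3 numbers in an F test with time as a covariate (edgeR quasi-likelihood test, Benjamini-Hochberg adjusted p from 6.43e-11 for Grb10 to 0.0322 for Peg3), beside 56.8% of all tested genes. The range of the 3 numbers' mean log2 CPM had a median of 1.58 over the 9 tested members and 0.38 over all tested genes. The range over the 3 times had a median of 0.23 and 0.28. It was smaller than the range over numbers for 8 of the 9 members, Mest being the exception, and for 61.7% of all tested genes.

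**Figure D2:**
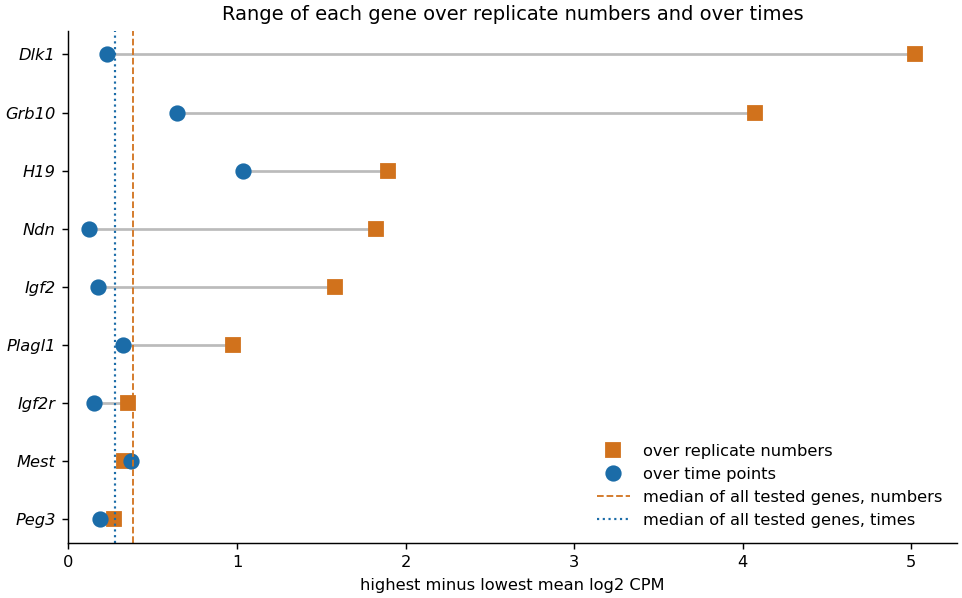
Highest minus lowest mean log2 CPM of each tested gene over the 3 replicate numbers (squares) and over the 3 times (circles), with the medians of all tested genes as lines. Dlk1 spans 5.02 and Grb10 4.07 over the numbers, while Peg3, Mest and Igf2r lie below the median of all genes for the numbers.

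The Dlk1-Meg3 domain gave the clearest case. Dlk1 encodes a membrane protein related to the Notch ligands and is classed as expressed from the paternal allele. Meg3 is a long noncoding RNA classed as expressed from the maternal allele of the same domain. Dlk1 had 36, 28 and 43 counts at 0, 1 and 6 h in replicate 1, and 57, 105 and 71 counts in replicate 2. In replicate 3 it had 0, 0 and 1 counts. The 3 libraries of replicate 3 thus lay apart from the other 6 at every time. Summed over the 3 libraries and scaled for library size, Dlk1 was 226 times higher in replicate 2 than in replicate 3 (95% exact binomial interval 40.2 to 8978, counting error only), and 127 times higher in replicate 1 than in replicate 3 (22.3 to 5055).

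Meg3 followed the same split. It had 9, 9 and 1 counts in replicate 1, then 21, 23 and 4 in replicate 2, and 0 counts in the 3 libraries of replicate 3, which hold 248875048 counts in all and allow a level of up to 0.0121 CPM. With a floor of 3 counts over the 3 libraries, Meg3 was at least 15.5-fold higher in replicate 2 and at least 7.51-fold higher in replicate 1 than in replicate 3. Rian, another noncoding RNA of the domain, had 51 counts in replicate 2, 19 in replicate 1 and 0 in replicate 3 (at least 16.5-fold and 7.51-fold higher). Mirg had 0 counts in all 9 libraries, and Rtl1 had 3 counts in all.

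Genes around the domain did not share this split. Among 9 tested genes within 1 Mb of Dlk1 with at least 1 CPM, a set taken after the values were seen, the log2 ratio of replicate 2 to replicate 3 ran from -1.01 to 0.04 with a median of -0.06. Wars had 94.7 CPM in replicate 2 and 99.0 in replicate 3, Wdr25 had 4.14 and 4.02, and Yy1 had 72.6 and 75.6.

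Dlk1 and Meg3 had 1 and 0 counts in the libraries of replicate 3, and Grb10 and Mest differed between times. Grb10 also differed between numbers, with a log2 range of 4.07 over numbers and 0.64 over times, and was lowest in replicate 3. The promoters of these genes are given with each CpG dinucleotide in capitals. They are RefSeq windows of 300 bases (250 before and 50 after the start) on GRCm38.p6, written 5′ to 3′ on the strand of the gene.
Dlk1 promoter (chr12:109452573-109452872, plus strand, 9 CpG): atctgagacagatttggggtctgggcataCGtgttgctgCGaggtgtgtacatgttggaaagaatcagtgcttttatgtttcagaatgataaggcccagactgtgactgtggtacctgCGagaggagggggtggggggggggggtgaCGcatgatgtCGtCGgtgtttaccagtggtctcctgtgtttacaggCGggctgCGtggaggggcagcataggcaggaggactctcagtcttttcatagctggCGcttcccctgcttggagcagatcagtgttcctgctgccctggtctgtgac
Meg3 promoter (chr12:109540746-109541045, plus strand, 13 CpG): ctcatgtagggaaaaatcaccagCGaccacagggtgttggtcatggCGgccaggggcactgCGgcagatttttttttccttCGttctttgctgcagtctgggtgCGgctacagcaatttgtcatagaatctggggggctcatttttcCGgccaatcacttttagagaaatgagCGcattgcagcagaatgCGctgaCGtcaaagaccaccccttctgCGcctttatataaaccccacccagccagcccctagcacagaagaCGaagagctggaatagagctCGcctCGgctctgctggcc
Grb10 promoter (chr11:12037371-12037670, minus strand, 45 CpG): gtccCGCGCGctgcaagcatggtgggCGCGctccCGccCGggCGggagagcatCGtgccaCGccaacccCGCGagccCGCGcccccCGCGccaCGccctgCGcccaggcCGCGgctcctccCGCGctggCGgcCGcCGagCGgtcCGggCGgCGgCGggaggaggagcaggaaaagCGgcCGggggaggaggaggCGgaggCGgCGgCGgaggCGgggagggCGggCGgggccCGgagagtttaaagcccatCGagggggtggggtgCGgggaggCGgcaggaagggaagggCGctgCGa
Mest promoter (chr6:30737800-30738099, plus strand, 17 CpG): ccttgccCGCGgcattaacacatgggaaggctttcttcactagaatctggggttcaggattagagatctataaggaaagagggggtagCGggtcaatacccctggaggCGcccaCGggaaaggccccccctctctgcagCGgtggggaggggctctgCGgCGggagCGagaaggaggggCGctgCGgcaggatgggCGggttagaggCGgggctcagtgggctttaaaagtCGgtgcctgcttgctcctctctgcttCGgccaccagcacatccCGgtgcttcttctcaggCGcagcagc
The printed Grb10 window is the richest of these in CpG, and only 1.93% of the 32851 RefSeq promoter windows of this length hold as many. Windows not printed were poorer or equal: Grb10 has another with 9 CpG, Meg3 another with 1, and Mest others with 8 and 17. The window of Plagl1, which also differed between times, holds 26 CpG. Which promoter was in use in these cells was not measured. As many CpG as in the Mest window were found in 31.4% of the windows, as in the Meg3 window in 37.9% and as in the Dlk1 window in 45.8%. The Meg3 window holds TATAAA, which 13.6% of all windows hold on either strand, and the other 3 printed windows do not. In all, 9 members matched 16 windows, and 14 of these were at or above the median of 7 CpG per window. H19 is named only.

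H19 and Igf2 share a control region on chromosome 7. Igf2, a secreted growth factor, is classed as expressed from the paternal allele and H19, a noncoding RNA, from the maternal allele. Both were highest in replicate 3. Igf2 had 0.525, 0.375 and 0.448 CPM at 0, 1 and 6 h in replicate 1, then 0.838, 0.723 and 0.561 CPM in replicate 2, and 1.23, 1.46 and 1.47 CPM in replicate 3. The 3 numbers did not overlap, and the mean of replicate 3 was 3.08 times that of replicate 1 (adjusted p = 6.97e-05 for the numbers, edgeR quasi-likelihood test).

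H19 was scarce, with 96 counts over all 9 libraries. It had 6, 9 and 2 counts in replicate 1, then 5, 5 and 3 in replicate 2, and 13, 31 and 22 in replicate 3. The libraries of replicate 3 were above the other 6, and its mean was 5.29 times that of replicate 2 (adjusted p = 0.000926, same test). A microRNA gene, Mir675, lies within H19 on the same strand and had 0 counts. It shares 84 exon bases with H19, and the libraries were of mRNA, so this count does not measure the microRNA.

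Igf2r, on chromosome 17, encodes the receptor that carries IGF2 to the lysosome for breakdown and is expressed from the maternal allele. It was abundant and even, at 88.6, 88.9 and 84.3 CPM in replicate 1, then 91.0, 90.0 and 98.9 in replicate 2, and 119, 94.0 and 124 in replicate 3. Replicate 3 was 1.29 times replicate 1, and its 1 h library lay within the range of replicate 2. Airn, the antisense RNA of the same locus, shares no exon bases with Igf2r.

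Grb10, on chromosome 11, encodes an adaptor that binds the insulin and IGF1 receptors and dampens their signal. It had 1.15, 1.22 and 1.90 CPM at 0, 1 and 6 h in replicate 1. It had 5.31, 5.43 and 8.82 CPM in replicate 2 and 0.329, 0.292 and 0.457 CPM in replicate 3. The numbers did not overlap, and replicate 2 was on average 18.1 times replicate 3. Cobl, a neighbour within 1 Mb, had 2.33, 9.91 and 0.927 CPM in replicates 1, 2 and 3, while the other 3 neighbours at 1 CPM or more, Vwc2, Fignl1 and Ddc, did not show this order (log2 ratio of replicate 2 to replicate 3 of -1.21, -0.42 and 0.14).

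Ndn, on chromosome 7, encodes necdin, a MAGE family protein known to restrain proliferation, and is expressed from the paternal allele. It had 27.5, 27.5 and 24.9 CPM in replicate 1, then 90.4, 96.0 and 96.4 CPM in replicate 2, and 51.1, 56.9 and 48.5 CPM in replicate 3. The 3 numbers stood clear of each other, with replicate 2 at 3.54 times replicate 1 (adjusted p = 1.58e-10, edgeR quasi-likelihood test). The 7 tested genes within 1 Mb of Ndn at 1 CPM or more were also higher in replicate 2 than in replicate 1. Their log2 ratios ran from 0.17 to 1.60 with a median of 0.53. Magel2, a MAGE family gene of the same domain, had 99 counts in the 3 libraries of replicate 2, 1 in replicate 1 and 2 in replicate 3, a ratio of 81.2 to replicate 1 (95% exact interval 14.2 to 3237) and 48.1 to replicate 3 (13.0 to 403).

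Plagl1 and Peg3 encode zinc finger transcription factors expressed from the paternal allele, and Plagl1 is known to halt the cell cycle. Plagl1 had 23.1, 25.3 and 31.1 CPM in replicate 1. It had 20.1, 21.9 and 23.8 CPM in replicate 2 and 42.7, 35.6 and 52.6 CPM in replicate 3. Replicate 3 lay above the other 6 libraries, at 1.99 times replicate 2. Peg3 was even: 222, 231 and 186 CPM in replicate 1, then 269, 275 and 226 CPM in replicate 2, and 266, 216 and 257 CPM in replicate 3. Its numbers overlapped, with the highest mean 1.21 times the lowest (adjusted p = 0.0322 for the numbers, edgeR quasi-likelihood test). This call was lost without the 0 h or 6 h library of replicate 1, the 0 h or 1 h library of replicate 2, or the 0 h library of replicate 3 (adjusted p of 0.0609 to 0.216, same test).

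Marker lists of NSCs and of other cell types were not level over the numbers. The NSC list summed to 7644 to 8355 CPM in replicate 1, then 9319 to 9801 in replicate 2 and 9260 to 10229 in replicate 3. Of its 12 markers 10 differed between the numbers, beside 56.8% of all tested genes. The neuroblast and neuron list summed to 1503 to 1563 CPM in replicate 1, then 1066 to 1105 in replicate 2 and 831 to 963 in replicate 3. Map2 made up most of this sum, with means of 1483, 1005 and 866 CPM, and other markers had another order: Gad1 averaged 19.3, 47.1 and 21.8 CPM, Tubb3 5.89, 6.68 and 2.96 CPM and Dcx 0.702, 0.772 and 1.26 CPM. The oligodendrocyte list summed to 70.0 to 89.4, then 84.7 to 118, and 49.0 to 66.3 CPM, and the ependymal list to 61.5 to 94.5, then 40.3 to 54.1, and 48.9 to 58.1 CPM. The pericyte and fibroblast list summed to 10.3 to 12.2, then 10.8 to 13.8, and 18.8 to 28.5 CPM in that order. The endothelial list summed to 5.42 to 10.3, then 10.8 to 20.0, and 3.23 to 4.97 CPM, and the choroid plexus list to 0.656 to 0.679, then 3.40 to 4.23, and 0.952 to 1.57 CPM. Their part in the differences of the imprinted genes was not tested. In bulk samples, fewer cells of a type and less RNA per cell cannot be told apart.

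**Figure D3:**
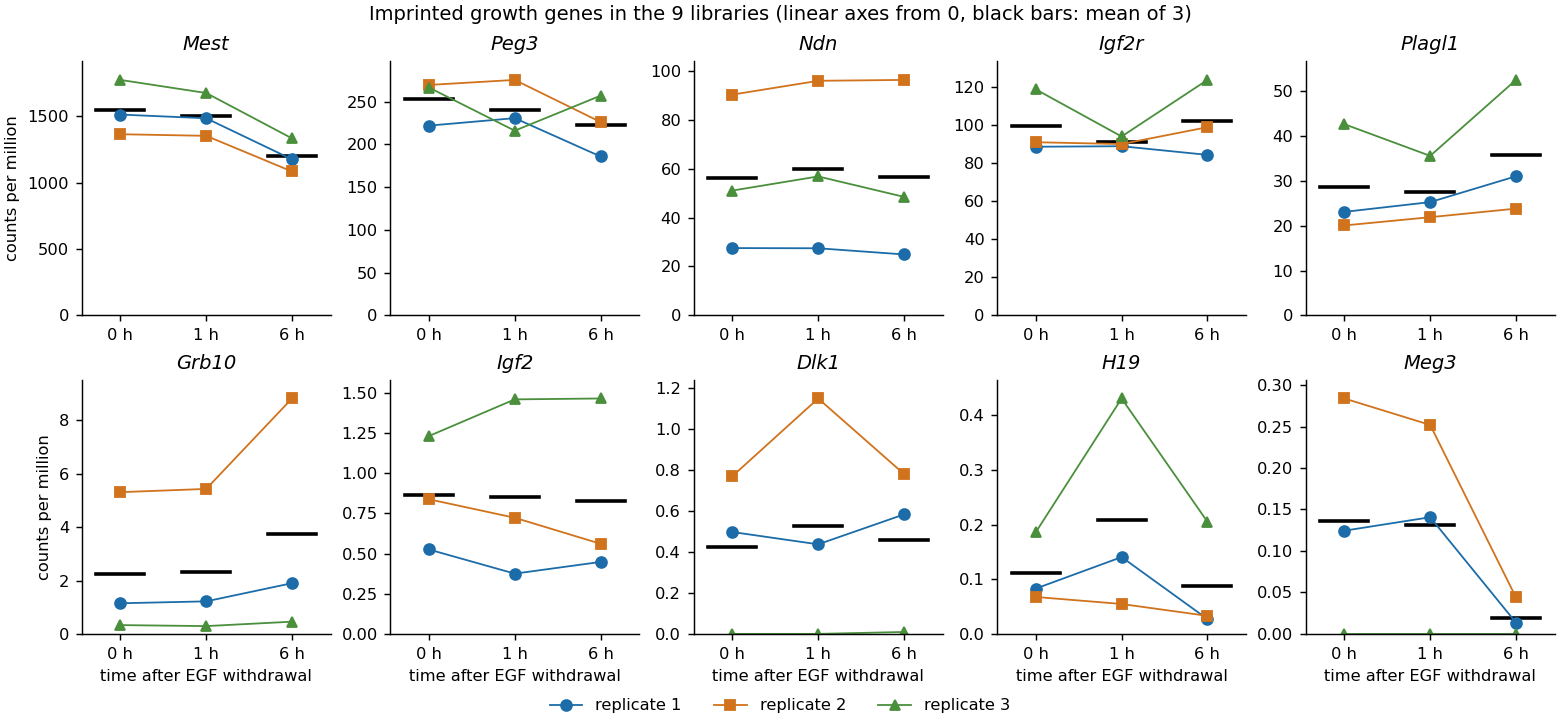
CPM of each gene in the 9 libraries by time after EGF withdrawal, with lines joining libraries of the same replicate number and black bars for the mean of 3. The lines of Ndn, Grb10, Igf2 and Dlk1 stay apart at every time, and the 3 lines of Mest all drop from 1 h to 6 h.

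Differences with time were tested in a model with time and replicate number. At 1 h against 0 h, 0 of the 9 tested members passed the threshold (adjusted p of 0.38 to 0.989, edgeR quasi-likelihood test with Benjamini-Hochberg adjustment), beside 3.51% of all tested genes. At an unadjusted p under 0.05 the count was also 0, and DESeq2 and the fit without the replicate term called 0. The median log2 fold change was 0.00 over the tested members and 0.00 over all genes.

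At 6 h against 0 h, Grb10 and Plagl1 rose and Mest fell. These 3 of 9 stood beside 34.9% of all tested genes called, 17.4% higher and 17.5% lower, so the share of called members was near the background. Mest went from 1512, 1364 and 1772 CPM at 0 h in replicates 1, 2 and 3 to 1175, 1083 and 1332 CPM at 6 h. The 2 groups did not overlap, and Mest was lower in 3 of 3 replicates. It fell by 22.6% (log2 fold change -0.37 ± 0.05 SE, adjusted p = 6.32e-05, edgeR quasi-likelihood test). Copg2, on the opposite strand, shares 912 exon bases with Mest, 23.1% of the Mest exons, and whether reads were counted by strand is not given in the sources used here. Copg2 averaged 127 CPM (SD 14.3, n = 3) at 0 h and, at 6 h, 124 CPM (SD 15.2, n = 3), with a log2 difference of -0.03 (adjusted p = 0.658, edgeR quasi-likelihood test).

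Grb10 rose 1.62-fold (log2 fold change 0.69 ± 0.12 SE, adjusted p = 0.000698, same test). The ratio of 6 h to 0 h was 1.66 in replicate 1, 1.66 in replicate 2 and 1.39 in replicate 3, although the ranges of the 2 groups overlapped. Without the 3 libraries of replicate 2, in which Grb10 was highest, it missed the threshold (adjusted p = 0.0826, edgeR quasi-likelihood test). Plagl1 rose 1.25-fold (log2 fold change 0.32 ± 0.08 SE, adjusted p = 0.00675, edgeR quasi-likelihood test) and was higher in 3 of 3 replicates, with ratios of 1.34, 1.19 and 1.23.

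These calls rest on the replicate term. Without it, 0 of the 9 members passed at 6 h against 0 h, beside 2.42% of all tested genes, with adjusted p of 0.866 for Grb10, 0.741 for Plagl1 and 0.176 for Mest (edgeR quasi-likelihood test). The log2 fold changes under the 20 alternatives stayed between 0.65 and 0.73 for Grb10, 0.27 and 0.40 for Plagl1, and -0.39 and -0.34 for Mest.

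Peg3 did not pass at 6 h against 0 h, with a log2 fold change of -0.18 ± 0.08 SE (adjusted p = 0.115, edgeR quasi-likelihood test), although its CPM was lower in 3 of 3 replicates. Peg3 passed with no filter on low counts (adjusted p = 0.00956, edgeR quasi-likelihood test), with only the 6 libraries compared (adjusted p = 0.00878, same test) and without the 1 h library of replicate 3 (adjusted p = 0.004, same test). Leaving out the 6 h library of replicate 3 gave -0.31 (adjusted p = 0.00537, same test), and leaving out all of replicate 3 gave -0.25 (adjusted p = 0.000545). The other tested members had log2 fold changes of 0.04 for Igf2r, -0.04 for Ndn, -0.14 ± 0.21 SE for Igf2, 0.14 ± 0.31 for Dlk1 and -0.42 ± 0.49 for H19, with adjusted p of 0.553 to 0.764 (edgeR quasi-likelihood test). For Igf2, Dlk1 and H19, changes of the size of these errors, each 1 SE, were not detectable at this depth. Changes larger than 1 SE could also be missed.

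Meg3 reached the minimum count in too few libraries to pass the filter. Its counts at 6 h, 1 in replicate 1 and 4 in replicate 2, were below the 9 and 21 counts at 0 h and the 9 and 23 counts at 1 h. In a fit with no filter on low counts, it was lower at 6 h than at 0 h (log2 fold change -2.69 ± 0.83 SE, adjusted p = 0.00767, edgeR quasi-likelihood test) and than at 1 h (-2.66 ± 0.83, adjusted p = 0.00849). Rian, which was not tested, averaged 0.118 CPM at 0 h, 0.122 at 1 h and 0.0556 at 6 h. Without the 0 h or the 6 h library of replicate 2, the difference of Meg3 at 6 h against 0 h missed the threshold (adjusted p = 0.0854 and 0.0741, edgeR quasi-likelihood test). The difference at 6 h against 1 h missed it without the 6 h library of replicate 2 (adjusted p = 0.0755, same test) and was at 0.05 without replicate 1.

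At 6 h against 1 h the same 3 genes passed: Grb10 was 1.59-fold higher (adjusted p = 0.000927), Plagl1 1.26-fold higher (adjusted p = 0.00645) and Mest fell by 20.4% (adjusted p = 0.00016, edgeR quasi-likelihood test for all 3). Each moved the same way in 3 of 3 replicates, and for Mest the groups did not overlap. The share of all tested genes with either property was not computed, here or against 0 h. H19 made a 4th call (log2 fold change -1.19 ± 0.44 SE, adjusted p = 0.0496, same test) and was lower at 6 h in 3 of 3 replicates, but it missed the threshold in 16 of 18 alternatives (adjusted p of 0.038 to 0.595 over the 18), and in each of the 9 fits that left out 1 library. A further 3 genes passed under some alternatives. Peg3 (-0.12, adjusted p = 0.313) passed without the 1 h or the 6 h library of replicate 3 (adjusted p = 0.00141 and 0.0237), and Igf2r (0.15, adjusted p = 0.132) without the 1 h or the 6 h library of replicate 1 (0.0342 and 0.0462) and with no filter on low counts (0.0264). Ndn (-0.12, adjusted p = 0.135) passed without the 6 h library of replicate 2 (adjusted p = 0.0465, edgeR quasi-likelihood test for all 3 genes). The 4 calls among 9 stood beside 35.6% of all tested genes, 18.0% higher and 17.5% lower. Without the replicate term 0 of 9 passed, beside 2.14% of all tested genes, and without replicate 2 only Plagl1 and Mest did. Because this comparison and the one against 0 h share the 6 h libraries, they are not independent.

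**Figure D4:**
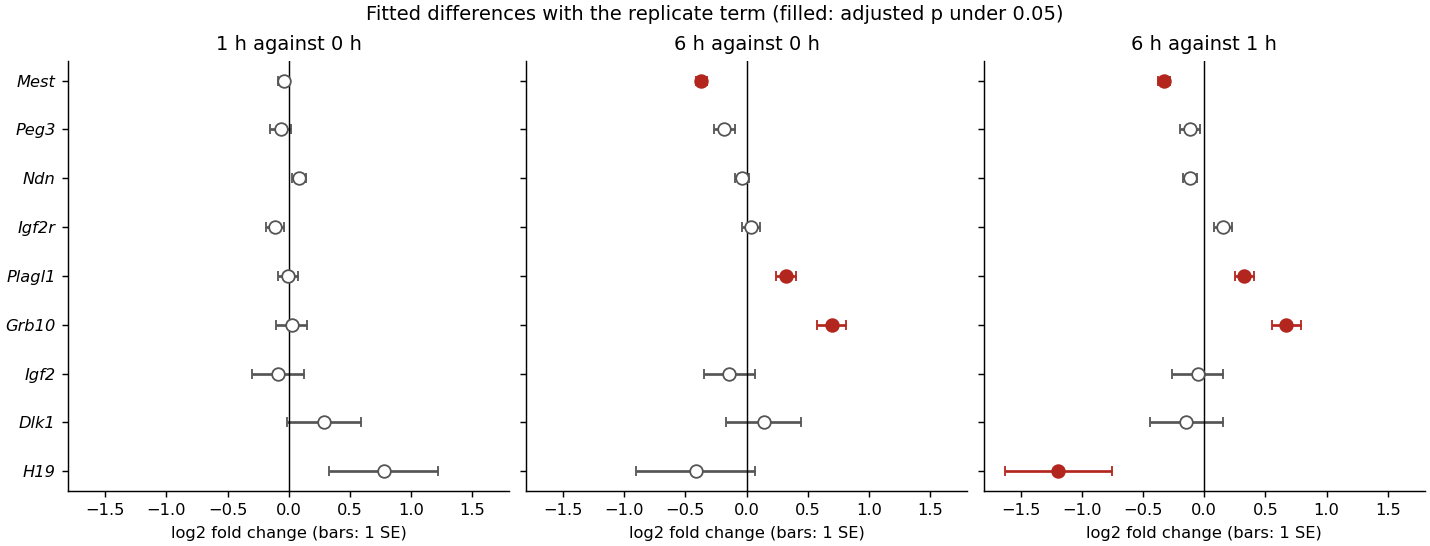
Log2 fold change of each tested gene with its SE in the 3 comparisons, fitted with the replicate term. Filled points passed an adjusted p of 0.05: none at 1 h, then Grb10 and Plagl1 higher and Mest lower at 6 h in both comparisons, with H19 lower only against 1 h (adjusted p = 0.0496, edgeR quasi-likelihood test).

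The marker sums of NSCs and of other cell types at 0 h and 6 h were as follows. The NSC list summed to 8355 to 9866 CPM at 0 h and 7644 to 9319 CPM at 6 h. Of its 12 markers 5 were called higher and 3 lower. The oligodendrocyte list summed to 49.0 to 84.7 CPM at 0 h and 66.3 to 118 CPM at 6 h, the pericyte and fibroblast list to 10.3 to 21.6 and 12.2 to 28.5 CPM, and the endothelial list to 4.97 to 20.0 and 3.23 to 10.8 CPM. The ependymal list summed to 48.5 to 89.8 CPM at 0 h and 40.3 to 61.5 CPM at 6 h. Of its 4 tested markers 2, Foxj1 and Ccdc153, fell by 0.36 and 0.68 on the log2 scale (adjusted p = 0.00107 and 0.00766, edgeR quasi-likelihood test). The neuroblast and neuron list summed to 963 to 1503 CPM at 0 h and 920 to 1563 CPM at 6 h. Of its 8 markers 4 rose: Rbfox3 by 1.23, Tubb3 by 1.06, Elavl3 by 0.87 and Snap25 by 0.50. Stmn2 (-0.77), Dcx (-0.35), Gad1 (-0.16) and Map2 (-0.01) were not called. Of 5 tested oligodendrocyte markers 2 were called higher and 1 lower, and of 5 pericyte and fibroblast markers also 2 and 1. Of 4 tested endothelial markers 3 were lower. These calls stood beside 34.9% of all tested genes, 17.4% higher and 17.5% lower. Microglia markers summed to 0.243 to 0.351 and 0.0814 to 0.242 CPM, and choroid plexus markers to 0.677 to 3.43 and 0.679 to 3.40 CPM. Their part in the 6 h differences was not tested.

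Other imprinted genes were set beside these. Of 54 listed, 36 were tested. At 1 h, Kcnq1ot1, the noncoding RNA of the Kcnq1 domain, rose (log2 fold change 0.69 ± 0.09 SE) and Peg10, a gene derived from a retrotransposon, fell by 0.25 on the log2 scale, and no other passed (2 of 36, beside 3.51% of all tested genes). Between 0 h and 6 h, 13 rose and 5 fell, with a median log2 fold change of 0.10 beside 0.00 for all tested genes. These 18 of 36 stood beside 34.9% of all tested genes called. Among genes with a mean of at least 1 CPM, the largest rises were in Kcnq1ot1 (0.78), Nnat (0.47), which encodes the membrane proteolipid neuronatin, Gnas (0.43), Nap1l5 (0.40) and Cd81 (0.32). Below 1 CPM, Tspan32 (1.35), Ascl2 (1.30) and Cdkn1c (0.79), a cell cycle inhibitor gene, also rose. The largest falls were in Peg10 (-0.76), Peg12 (-0.46), Ppp1r9a (-0.39), Usp29 (-0.33) and Inpp5f (-0.20). Each of these 13 genes moved the same way in 3 of 3 replicates.

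From 1 h to 6 h, 6 of the 36 were higher, led by Nap1l5 (0.35) and Nnat (0.31), and 5 were lower, led by Peg10 (-0.51) and Usp29 (-0.46), 11 in all beside 35.6% of all tested genes. Between the replicate numbers 24 of the 36 differed, beside 56.8% of all tested genes. Nnat averaged 214, 483 and 222 CPM in replicates 1, 2 and 3, and Sgce 15.9, 14.9 and 27.3 CPM, whereas Peg10 averaged 254, 254 and 239 CPM (adjusted p = 0.213, edgeR quasi-likelihood test).

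The IGF and insulin pathway, which carries the signals of IGF2 and is dampened by Grb10, was measured through 35 listed genes, of which 29 were tested. At 1 h 3 rose and 0 fell, beside 3.51% of all tested genes called: the receptor substrates Irs1 (log2 fold change 0.48) and Irs2 (0.32), and the IGF binding protein gene Igfbp3 (0.35). By 6 h, 5 were above their 0 h level and 6 below it, and these 11 of 29 stood beside 34.9% of all tested genes. Igf1, the other IGF ligand gene, rose by 1.31 on the log2 scale in 3 of 3 replicates (adjusted p = 0.00791, edgeR quasi-likelihood test) at a mean of 0.433 CPM. Pik3r1, a regulatory subunit of the PI3 kinase, rose by 0.54, Tsc1, an inhibitor of the mTOR pathway, by 0.29, and Igfbp4 by 0.25, the last in 2 of 3 replicates. Deptor, another mTOR inhibitor, fell by 0.65, Igf2bp2, an RNA-binding protein that binds Igf2 mRNA, by 0.64, and the receptor gene Igf1r by 0.21 on the log2 scale. Set against 1 h, the 6 h libraries had 2 of these genes higher and 9 lower (11 of 29, beside 35.6% of all tested genes), Irs1 (-0.35), Irs2 (-0.22) and Irs4 (-1.32, at a mean of 0.345 CPM) among the latter.

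Between the replicate numbers 22 of the 29 pathway genes differed, beside 56.8% of all tested genes. Igf2bp2 averaged 11.5, 12.1 and 56.0 CPM in replicates 1, 2 and 3, and like Igf2 it was highest in replicate 3. Igf2bp3, listed with the same role, averaged 2.48, 5.89 and 2.15 CPM and was lowest in replicate 3. Igfbp5 averaged 148, 71.1 and 23.3 CPM, and Igfbp2 averaged 2269, 977 and 922 CPM.

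A list of 12 genes of DNA methylation and its readers, all tested, included Tet1, Tet2 and Tet3. At 1 h 0 of the 12 passed by edgeR, beside 3.51% of all tested genes. At an unadjusted p under 0.05 there were 3, and DESeq2 called 1. By 6 h, relative to 0 h, Zfp57, a zinc finger protein that binds the methylated control regions, rose by 0.49 and the DNA methyltransferase gene Dnmt3a by 0.32 on the log2 scale. Smchd1 fell by 0.36, the maintenance methyltransferase gene Dnmt1 by 0.35, Uhrf1, whose protein brings it to replicated DNA, by 0.26, Dnmt3b by 0.29 and Tet3 by 0.21. These 7 of 12 moved the same way in 3 of 3 replicates, beside 34.9% of all tested genes called. Relative to 1 h, 4 of the 12 were higher and 4 lower at 6 h, beside 35.6% of all tested genes.

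The calls in these 3 lists rest on the replicate term as well. Without it, the 6 h against 0 h comparison called 2 of the 36 other imprinted genes (1 higher and 1 lower). It called 1 of the 29 IGF and insulin genes (lower) and 1 of the 12 DNA methylation genes (higher). These counts stood beside 2.42% of all tested genes.

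The genes most like each member in their pattern over the 9 libraries were found by the root mean square difference of centred log2 CPM among tested genes with at least 1 CPM. For Mest they were G3bp1, Wdr43 and Nsun2 (0.051 to 0.052), and for Peg3 Gm7589, St6gal2 and E130308A19Rik (0.063 to 0.075). For Igf2r they were Col5a1, Slc25a44 and Trim8 (0.084 to 0.088), for Plagl1 Sema4d, Pcdhgb2 and Tgfa (0.127 to 0.141), and for Ndn Bcas1, Pcolce and C2 (0.143 to 0.176). For Igf2 they were Mmp17, Gypc and Il17ra (0.215 to 0.233). The members that differed most between numbers had less close matches: Grb10 had Brinp1, Cend1 and Cobl (0.344 to 0.466), H19 had Pla1a, Col22a1 and E030030I06Rik (0.345 to 0.388), and Dlk1 had En1, Grin2c and Cadm3 (0.446 to 0.498). En1 averaged 2.99, 3.59 and 0.0593 CPM in replicates 1, 2 and 3. No member was among the 3 genes most like another member, and the closest pair among them was Igf2r and Peg3 (0.183).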

How the data were processed

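Total RNA was extracted and stranded mRNA libraries were sequenced as paired ends. The authors aligned reads and counted genes with STAR 2.5.3a on mm10 (GRCm38), and deposited raw counts per gene, with DESeq2 1.22.1 and FastQC also named in the submitters' processing notes. The strand setting of the counting is not given in the sources used here. All 9 columns of the table were used. GENCODE M21 gave the symbols, exon lengths and overlaps, and 48144 of the 48526 identifiers matched it. Near-identical copies of a gene may share reads.

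Genes were kept by filterByExpr (minimum count 10, minimum total 15), scaled by TMM, and tested with edgeR 4.0.16 (quasi-likelihood F test, R 4.3.3) in a model with time and replicate number, with Benjamini-Hochberg adjustment over all tested genes and a threshold of 0.05. CPM used the TMM-scaled totals, and log2 CPM a prior count of 2. Errors of fold changes are SE computed as the log2 fold change divided by the root of F. The scripts were tested on simulated data. Total counts ranged from 65871454 to 105592597, so 3 counts correspond to 0.0117 to 0.0143 CPM over the 3 libraries of a number. Intervals and floors cover counting error only.

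The replicate number was kept as a block because the members' selection rule pairs the libraries by the letter in their titles. As a check, deviations from the time means correlated at 0.73 to 0.80 between libraries with the same number (9 pairs) and at -0.46 to -0.31 between other libraries (18 pairs). The deviations cancel within each time, so the negative values follow from the positive ones and are not separate evidence. The common biological coefficient of variation was 0.0627 with the block and 0.277 without it.

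The members and the gene lists were chosen with earlier results of these data known. Named genes were all members, the 5 largest rises and falls past the threshold in each list at a mean of at least 1 CPM, of which some are given, and the 3 genes most like each member. Genes within 1 Mb of a member, and Rian, Magel2, Rtl1, Mirg, Mir675, Igf1, Irs4, Tspan32, Ascl2, Cdkn1c and genes of the lists named for their replicate pattern, were chosen after their values were seen. Alternatives were no replicate block, DESeq2 1.42.0, RLE scaling, library totals, no filter, only the 6 libraries compared, leaving out each library or number, and, added after seeing the data, removal of GC and length trends with and without the block (99.6% of tested genes had both values). Promoters came from RefSeq.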

Additional observations from a re-analysis of the deposited data

How the results depend on the processing

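The number of members called at 1 h against 0 h was 0 under every alternative. At 6 h against 0 h it was 3, against 0 with no replicate block, 0 with GC and length trends removed and no replicate block, 5 with no filter on low counts (Meg3 and Peg3 added), and 2 to 5 when a library or a replicate number was left out. At 6 h against 1 h it was 4, against 0 with no replicate block, 0 with GC and length trends removed and no replicate block, and 2 to 5 with libraries left out. Among the fits with libraries left out, the lowest count in both came without replicate 2. Because the selection rule pairs the libraries by the letter in their titles, the fit with the replicate block was the main one. The cause of these shifts was not tested.

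Of 531 member values recomputed, 454 kept their direction and their side of the threshold, 30 lost a call, 13 gained one and 34 changed sign. Grb10, Plagl1 and Mest lost their 6 h calls only without the block, and Grb10 also without replicate 2. H19 at 6 h against 1 h lost its call in 16 of 18, and DESeq2 gave it no adjusted p. Every change of sign was in a value that had not passed. The log2 fold change of Ndn between 0 h and 6 h was 0.0073 without the block, and 0.031 with GC and length trends removed and no block. With GC and length trends removed and no block, the values between 0 h and 1 h were 0.0015 for Igf2 and 0.0017 for Plagl1. Plagl1 between 0 h and 1 h was at 0.0049 by DESeq2, 0.0032 with RLE scaling and 0.041 with GC and length trends removed and the block kept. With libraries left out, values at 1 h against 0 h ran from -0.34 to 0.063 for Igf2, -0.20 to 0.0043 for Igf2r, -0.0018 to 0.053 for Grb10, -0.26 to 0.61 for Dlk1, -0.092 to 0.13 for Plagl1 and -0.14 to 0.081 for Peg3. The same fits gave, at 6 h against 0 h, -0.42 to 0.077 for Igf2, -0.030 to 0.12 for Igf2r, -0.10 to 0.50 for Dlk1 and -0.098 to 0.019 for Ndn, and, at 6 h against 1 h, -0.24 to 0.13 for Igf2 and -0.51 to 0.48 for Dlk1.

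Over all genes, the calls at 1 h against 0 h were 661, against 8 with no block, 9 with GC and length trends removed and no block, 1369 with no filter, and 184 to 886 with libraries left out. At 6 h against 0 h they were 6581, against 456 with no block, 404 with trends removed and no block, and 3656 to 8051 with libraries left out. At 6 h against 1 h they were 6710, against 404 and 428 in those fits, and 4132 to 6657 with libraries left out. Depth limits Meg3, H19, Dlk1 and Igf2, whose counts were at most 157 in any library.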
